A study of Mus musculus with 12 samples.

Results

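Helper T cell lineage factors are the transcription factors that direct an activated CD4 T cell toward one effector fate. The members described here are *Tbx21* (T-BET), *Eomes* (EOMES), *Gata3* (GATA3), *Maf* (c-MAF), *Rora* (RORα), *Bcl6* (BCL6) and *Prdm1* (BLIMP1). They were taken by gene name, 7 of the 24439 gene names in the tables, and all 7 passed the filter of over 1 TPM in at least 1 library, which 12442 genes passed. Their mRNA was measured by RNA-Seq in 12 libraries of mouse CD4 T blast cells.

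The study asked how IL-2, the growth cytokine of activated T cells, maintains gene regulation in dividing CD4 T cells that have not been polarized (Th0 cells). CD4 T cells were taken from the spleen of C57BL/6 C42 mice, a line back-crossed to C57BL/6J that carries a fragment of the human IL3/CSF2 locus, in all 4 groups. Age and sex are not given, and neither the labels nor the methods say whether the libraries of a group came from separate mice, so P-values measure the spread between these libraries. All cells were activated with ConA, a lectin that drives T cells through their antigen receptor, at 2 µg/ml for 40 h and were then kept in IL-2 at 50 U/ml, for 2 days by the labels and 30 h by the methods. TB IL-2 cells (n = 3) stayed in IL-2, and TB IL-2nil cells (n = 3) were without it for 16 h. TB+ IL-2 (n = 3) and TB+ IL-2nil (n = 3) cells had the same histories and were then stimulated for 2 h with PMA at 20 ng/ml and the calcium ionophore A23187 at 2 µM (PMA/I), which together bypass the receptor. No lineage-polarizing cytokine was added to any group.

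T-BET drives the Th1 program and *Ifng*, and EOMES is its T-box relative, best known from CD8 and NK cells. GATA3 drives the Th2 program and *Il4*, and c-MAF assists *Il4*, *Il21* and *Il10*. RORα contributes to the Th17 program. BCL6 directs follicular helper T (Tfh) cells, and BLIMP1 opposes it, with each repressing the gene of the other. IL-2 acts through STAT5, which is known to repress *Bcl6* and to induce *Prdm1*, whereas PMA/I activates AP-1, NFAT and NF-κB.

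The libraries labelled TB IL-2nil replicate 3 and TB+ IL-2 replicate 3 were placed in each other's group here. The study's own published list of expression values holds each of them under the other name. Of 1381 genes in that list, all met the placement used here within 0.1%, whereas 0.0724% met the label in these 2 columns. For this match the libraries were quantile normalized, so the levels printed below, which are scaled otherwise, need not equal that list. The labels stay the submitters' own, so each comparison below is also given by label and with both libraries left out. A replicate number is the one in the label.

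Levels are FPKM values made by the authors, rescaled to TPM (the share of each gene in all transcripts, corrected for length) and to a common upper quartile, so that levels can be compared between genes. Differences are in log2(TPM + 1), and a limit of 3-fold applies to them and not to ratios of mean TPM. The 8 T cell markers summed to between 2187 and 3377 TPM in every library, and *Cd4* was at 100 TPM or above. They also differed between groups. With IL-2 in unstimulated cells 6 of 8 were lower and 1 (*Thy1*) higher, against 22.3% and 17.3% of all genes tested. In stimulated cells 4 of 8 were lower and 1 higher, against 8.40% and 12.9%. *Cd4* was at 134 ± 12 TPM in TB IL-2 and 333 ± 33.7 TPM in TB IL-2nil. Of the other cell types, *Cd8a* and *Cd8b1* summed to 6.91 to 31.9 TPM, the 5 NK cell markers to 0.129 to 2.04 TPM with *Ncr1* listed at 0 in all 12 libraries, and the 5 myeloid markers in the tables to 1.74 to 4.88 TPM. The 5 regulatory T cell markers summed to 178 to 381 TPM, though *Foxp3*, which defines these cells, was at 1.68 TPM or below. The B cell and plasma cell markers differed between groups as well and are given beside *Bcl6*. The depth of the libraries, estimated from the steps between low values, ranged from 0.409 to 1.24 times the median, and short non-coding RNAs took 16.6% to 53.2% of the summed FPKM. As a check of the treatments, *Il2*, the cytokine gene that PMA/I switches on, was at 4.17 TPM or below without stimulation and at 3539 TPM or above after it, and *Il2ra*, a gene that IL-2 maintains, was at 229 to 759 TPM in TB IL-2 and at 58.6 to 81.0 TPM in TB IL-2nil. In stimulated cells the IL-2 responsive genes did not all separate this way. *Il2ra* overlapped, at 630 to 848 TPM in TB+ IL-2 and 554 to 668 TPM in TB+ IL-2nil. *Cish*, an inhibitor gene induced by STAT5, was at 294 ± 67.2 TPM with IL-2 and 538 ± 115 TPM without it. *Socs1*, also in the check, was lower with IL-2 (-2.22 to -1.58 over the 12 fits that left out 1 library, adjusted P up to 0.0470, limma). The granzyme gene *Gzmb*, higher with IL-2 in unstimulated cells, was at 401, 381 and 532 TPM in TB+ IL-2 and at 33.5, 57.2 and 28.6 TPM in TB+ IL-2nil.

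The members are spread over 6 chromosomes (mm9, GENCODE M1 gene models). *Tbx21* lies at chr11:96959385-96976645 on the minus strand, *Eomes* at chr9:118387330-118395250 on the plus strand, *Gata3* at chr2:9778705-9811661 on the minus strand and *Maf* at chr8:118206842-118231694 on the minus strand. *Rora* lies at chr9:68501593-69236053 on the plus strand, *Bcl6* at chr16:23965138-23988938 on the minus strand and *Prdm1* at chr10:44156983-44248307 on the minus strand. Other annotated genes overlap *Gata3* (3 genes), *Rora* (2 genes) and *Maf* (1 gene), and the sources do not say whether strand was used in the quantification. The overlapping genes present in the tables were at 7.05 TPM or below next to *Gata3* and at 2.61 TPM or below next to *Rora*.

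The 250 bases before the annotated start were searched for letters bound by the factors of these treatments. RefSeq promoters were found for 6 of the 7 members, in 7 windows because *Bcl6* has 2 starts, and each window matched mm9 exactly once. The AP-1 motif TGANTCA is in 6.75% of all 32851 promoter windows of this length, the STAT motif TTCNNNGAA in 7.02% and the NFAT core GGAAA in 55.6%, on either strand. The windows shown are those of *Tbx21* and *Gata3*, the factors of the Th1 and Th2 fates that were higher after PMA/I, of *Bcl6*, which was lower with IL-2, and of *Prdm1*, the partner of *Bcl6*. They are read 5′ to 3′ on the strand of the gene, with motif matches in capitals.
*Tbx21*, chr11:96976646-96976895: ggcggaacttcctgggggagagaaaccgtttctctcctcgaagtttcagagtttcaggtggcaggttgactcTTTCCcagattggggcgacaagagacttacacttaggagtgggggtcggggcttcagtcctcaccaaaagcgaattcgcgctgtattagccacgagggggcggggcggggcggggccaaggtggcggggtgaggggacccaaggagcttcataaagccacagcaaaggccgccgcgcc
*Gata3*, chr2:9800228-9800477: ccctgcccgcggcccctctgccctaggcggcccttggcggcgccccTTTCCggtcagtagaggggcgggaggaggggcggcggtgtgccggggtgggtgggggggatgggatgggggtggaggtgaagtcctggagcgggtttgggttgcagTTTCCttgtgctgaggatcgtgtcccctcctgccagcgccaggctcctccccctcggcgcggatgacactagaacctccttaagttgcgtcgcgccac
*Bcl6* first start, chr16:23988939-23989188: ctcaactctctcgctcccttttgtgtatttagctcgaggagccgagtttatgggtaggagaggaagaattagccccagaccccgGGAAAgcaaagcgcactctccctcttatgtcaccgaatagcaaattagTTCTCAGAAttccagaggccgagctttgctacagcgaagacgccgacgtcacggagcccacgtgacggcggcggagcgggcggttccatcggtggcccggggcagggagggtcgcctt
*Bcl6* second start, chr16:23981370-23981619: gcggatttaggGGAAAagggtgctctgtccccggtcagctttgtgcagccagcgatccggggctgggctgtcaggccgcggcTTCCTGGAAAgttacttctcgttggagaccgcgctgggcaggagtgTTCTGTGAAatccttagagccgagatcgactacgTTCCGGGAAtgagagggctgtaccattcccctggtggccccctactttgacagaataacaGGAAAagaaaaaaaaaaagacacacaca
*Prdm1*, chr10:44178555-44178804: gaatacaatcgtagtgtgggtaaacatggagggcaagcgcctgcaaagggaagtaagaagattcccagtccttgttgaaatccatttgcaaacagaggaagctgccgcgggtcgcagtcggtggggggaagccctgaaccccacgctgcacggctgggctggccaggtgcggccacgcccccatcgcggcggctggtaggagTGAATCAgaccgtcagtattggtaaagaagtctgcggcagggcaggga
The windows of *Gata3*, *Prdm1* and the second start of *Bcl6* lie within the annotated span of the gene and in none of its exons. STAT letters stand once at the first start of *Bcl6*, beginning 118 bases before it, and 3 times at the second, from 168, 122 and 88 bases before it, where 1 of them overlaps an NFAT core. No other member with a window has STAT letters in it. AP-1 letters stand once, 48 bases before the start of *Prdm1*, and in no other member's window. The NFAT core stands once in the window of *Tbx21* and of *Rora*, and 2 times in that of *Gata3*. These matches describe letters and do not show binding.

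Ranked by level, *Gata3* was the highest member in each of the 4 groups and lay between percentiles 90.56 and 98.05 of the genes tested, with no overlap with the member next below. In TB IL-2 cells it stood at 107 ± 14.4 TPM (SD, n = 3), followed by *Tbx21* at 10.1 ± 3.79 TPM, *Maf* at 7.28 ± 1.60 TPM, *Prdm1* at 5.25 ± 2.74 TPM, *Eomes* at 4.22 ± 1.78 TPM and *Rora* at 2.36 ± 1.68 TPM. Neighbours among these 5 overlapped in this order, and *Bcl6* was last, below all others, at 0.838 ± 0.0573 TPM. Of the summed level of the 7 members, *Gata3* made 77.9% ± 5.10 in TB IL-2 and *Tbx21* 7.44% ± 2.79. After PMA/I without IL-2 these shares were 63.6% ± 3.9 and 29.7% ± 4.01 (SD, n = 3 each). Without IL-2 and before PMA/I, *Maf* (23.3 ± 9.0 TPM) stood next to *Gata3* and *Eomes* was last at 1.64 ± 0.344 TPM, below every *Prdm1* value. After PMA/I *Tbx21* was next to *Gata3* in both groups and above the following member in every library, *Prdm1* with IL-2 (9.49 ± 2.52 TPM) and *Rora* without it (18.9 ± 4.72 TPM), and the remaining neighbours overlapped.

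**Figure D1:**
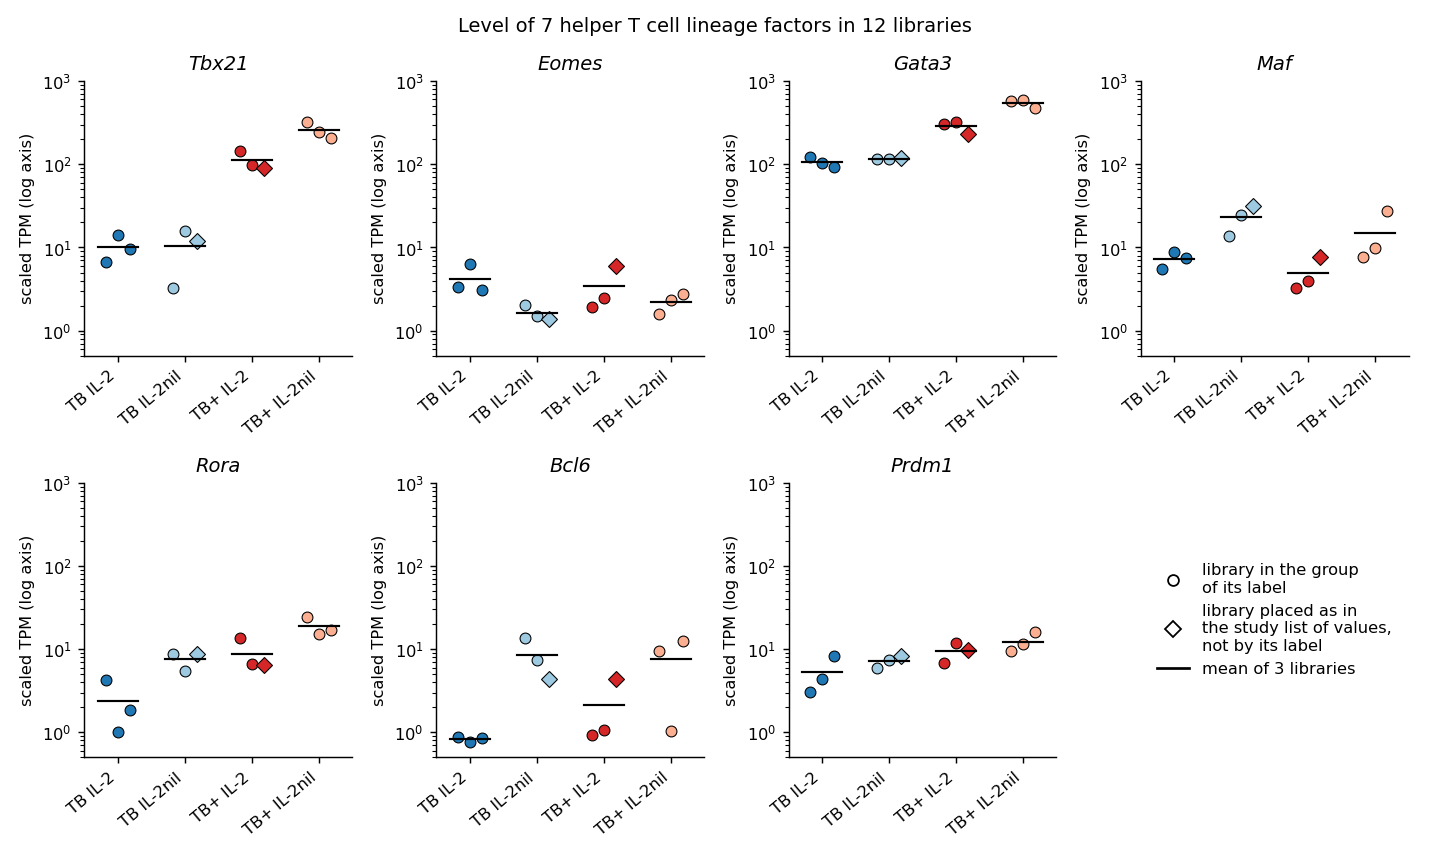
Scaled TPM of the 7 members in the 12 libraries on a log axis, by group, with the mean of each group as a line. *Gata3* lies at 93.9 TPM or above in every library, *Tbx21* moves from 3.30 to 15.6 TPM in unstimulated cells to 91.4 to 326 TPM after PMA/I, and *Bcl6* is under 1 TPM in all 3 TB IL-2 libraries.

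In TB cells, IL-2 went with lower *Bcl6*, *Maf* and *Rora* and higher *Eomes*, while *Tbx21*, *Gata3* and *Prdm1* did not pass the test. Thus 3 of 7 members were lower in TB IL-2 than in TB IL-2nil, against 22.3% of all genes tested, and 1 was higher, against 17.3%. *Bcl6* was the member that also exceeded 3-fold in log2(TPM + 1), as 7.42% of all genes did. As ratios of mean TPM, *Bcl6* (10-fold), *Maf* (3.19-fold) and *Rora* (3.23-fold) were all over 3-fold higher without IL-2. The median difference of the 7 members was -0.46, and that of all genes -0.13.

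*Bcl6*, which directs Tfh cells, was at 0.880, 0.773 and 0.860 TPM in the 3 TB IL-2 libraries (replicates 1, 2 and 3, as in each list of 3 values below) and at 13.4, 7.35 and 4.42 TPM in TB IL-2nil. All 3 libraries without IL-2 were higher than all 3 with it. The difference was -2.24 ± 0.65 (SE), with a 95% confidence interval from -3.66 to -0.82 and an adjusted P = 0.0181. Markers of B cells, in which *Bcl6* is also used, moved the same way. The 6 markers of B cells and plasma cells in the tables summed to 16.7 to 24.8 TPM in TB IL-2 and 68.6 to 105 TPM in TB IL-2nil, and all 5 that were tested were lower with IL-2. *Jchain* made most of that sum, at 44.8, 74.1 and 75.2 TPM in TB IL-2nil. Their part in the *Bcl6* difference was not tested, and in bulk RNA fewer cells with a transcript cannot be told apart from less of it per cell.

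*Maf*, whose product assists Tfh and Th2 genes, was at 5.57, 8.73 and 7.55 TPM in TB IL-2 and at 13.6, 24.7 and 31.5 TPM in TB IL-2nil. The groups did not overlap, and the difference was -1.49 ± 0.44 (adjusted P = 0.0208). *Rora*, a factor of Th17 cells, was at 4.24, 1.0 and 1.85 TPM with IL-2 and at 8.76, 5.39 and 8.74 TPM without it, again with no overlap, and differed by -1.45 ± 0.37 (adjusted P = 0.0100). *Eomes* ran the other way. It was at 3.34, 6.28 and 3.05 TPM in TB IL-2 and at 2.03, 1.48 and 1.40 TPM in TB IL-2nil, a difference of 0.94 ± 0.32 (adjusted P = 0.0375) at a level whose median over the 12 libraries was at percentile 24.9 of the genes tested. The summed CD8 T cell markers, 6.91 to 31.9 TPM in TB IL-2 and 14.0 to 22.1 TPM in TB IL-2nil, overlapped between these groups. The part of CD8 T cells in the *Eomes* difference was not tested.

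*Tbx21* was at 6.69, 14.2 and 9.52 TPM in TB IL-2 and at 3.30, 15.6 and 12 TPM in TB IL-2nil. The ranges overlapped, and the difference of 0.13 had a 95% confidence interval from -0.85 to 1.12 (adjusted P = 0.843). *Gata3* was at 122, 105 and 93.9 TPM with IL-2 and at 114, 114 and 119 TPM without it, with an interval of the difference from -0.50 to 0.25 (adjusted P = 0.599). *Prdm1*, at 3.04, 4.38 and 8.31 TPM against 5.88, 7.39 and 8.17 TPM, had an interval from -1.14 to 0.22 (adjusted P = 0.253). The interval of *Gata3* was the narrowest of the 7 members.

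Placed by label, none of the 7 members passed the test in this comparison (adjusted P from 0.214 for *Rora* to 0.812 for *Tbx21*), nor did more than 15 of all genes. With both libraries left out, *Bcl6* (-2.58, adjusted P = 0.0207), *Rora* (-1.35, adjusted P = 0.0428) and *Eomes* (0.88, adjusted P = 0.0425) passed, and *Maf* did not (-1.25, adjusted P = 0.0707). With 1 library left out at a time, *Rora* passed each time. *Bcl6* was lost without TB IL-2 replicate 2 (adjusted P = 0.0516) or TB IL-2nil replicate 1 (adjusted P = 0.0697). *Maf* was lost without TB IL-2 replicate 1 or 3 (adjusted P = 0.0628 and 0.0513) or TB IL-2nil replicate 2 or 3 (adjusted P = 0.0614 and 0.0760), and *Eomes* without TB IL-2 replicate 2 (adjusted P = 0.148) or any of the TB IL-2nil replicates 1, 2 and 3 (adjusted P = 0.0541, 0.0925 and 0.0961).

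In TB+ IL-2 cells *Tbx21*, *Gata3* and *Rora* were higher than in TB IL-2 cells, 3 of 7 members against 11.8% of all genes tested, and *Tbx21* and *Rora* also exceeded 3-fold, as 7.04% of all genes did. No member was lower, whereas 23.3% of all genes were, and none was lower at an unadjusted P under 0.05 (limma). The median difference was 0.81 for the 7 members and -0.22 for all genes.

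*Tbx21* was at 146, 97.3 and 91.4 TPM in the stimulated libraries, against at most 14.2 TPM before. All 3 stimulated libraries were far above the 3 unstimulated ones, with mean levels 11-fold apart and a difference of 3.36 ± 0.45 (95% confidence interval from 2.37 to 4.35, adjusted P = 0.000291). *Gata3* was at 302, 323 and 231 TPM after PMA/I, a 2.67-fold higher mean than without it, and differed by 1.40 ± 0.17 (adjusted P = 0.000156). *Rora* was at 13.5, 6.65 and 6.38 TPM after PMA/I, above the 3 TB IL-2 values, and differed by 1.59 ± 0.37 (adjusted P = 0.00687).

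The remaining members gave values that did not pass the test. *Prdm1* was at 6.83, 11.8 and 9.83 TPM in TB+ IL-2 and overlapped TB IL-2 in 1 library, with a difference of 0.81 ± 0.31 (adjusted P = 0.0624). It passed with the replicate number as a block (adjusted P = 0.00845), with quantile normalization (adjusted P = 0.0166) and with median ratio scaling (adjusted P = 0.0268). *Maf* was at 3.29, 3.97 and 7.71 TPM and *Eomes* at 1.93, 2.44 and 5.91 TPM, both overlapping TB IL-2 (adjusted P = 0.394 and 0.512). *Bcl6* was at 0.938, 1.08 and 4.38 TPM, so that the difference of 0.60 rested on replicate 3, the library of the other label (0.13 with both such libraries left out).

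Placed by label no member passed in this comparison, with *Rora* nearest (adjusted P = 0.0721). With both libraries left out, *Tbx21* (3.49, adjusted P = 0.00199), *Gata3* (1.55, adjusted P = 0.000524) and *Rora* (1.76, adjusted P = 0.0157) passed.

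*Tbx21*, *Gata3* and *Rora* reached their highest levels of the 4 groups after IL-2 withdrawal and PMA/I. They were higher in TB+ IL-2nil than in TB IL-2nil, 3 of 7 members against 20.1% of all genes tested, while no member and 41.1% of all genes were lower (no member at an unadjusted P under 0.05, limma). Beyond 3-fold were *Tbx21* and *Gata3*, and 18.5% of all genes. The median difference was 0.69 for the members and -0.38 for all genes. The latter was -0.08 with median ratio scaling, and -0.63 with short RNAs removed and no scaling, which changed both choices at once.

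*Tbx21* was at 326, 242 and 205 TPM, 24.9-fold above the mean of TB IL-2nil, and differed by 4.70 ± 0.45 (adjusted P = 9.92e-06). *Gata3* was at 571, 594 and 473 TPM, 4.72-fold above the mean of TB IL-2nil, and differed by 2.22 ± 0.17 (adjusted P = 2.72e-06). In both genes all 3 stimulated libraries were above every library of the other 3 groups. *Rora*, at 24.2, 15.4 and 17.0 TPM, was likewise above the other groups and differed by 1.2 ± 0.37 (adjusted P = 0.0148).

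*Prdm1* was at 9.49, 11.4 and 16.2 TPM, all above TB IL-2nil, with a difference of 0.69 ± 0.31 (adjusted P = 0.0706) that passed with the replicate number as a block (adjusted P = 0.0103). *Maf* was at 7.63, 9.79 and 27.1 TPM. Each value was below that of the same replicate in TB IL-2nil, and the difference of -0.74 did not pass (adjusted P = 0.169) unless the replicate number was a block (adjusted P = 0.0307). *Bcl6*, at 9.45, 1.04 and 12.5 TPM, was spread more widely than in any other group, since replicate 2 was close to the TB IL-2 level, and its interval ran from -1.81 to 1.03 (adjusted P = 0.613). *Eomes* stayed low, at 1.59, 2.35 and 2.77 TPM (adjusted P = 0.461).

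Placed by label, *Gata3* was the member that passed (1.90, adjusted P = 0.0328), and *Rora* and *Tbx21* had an adjusted P = 0.0627 and 0.0637. With both libraries left out the same 3 members passed as above, *Gata3* at 2.24 (adjusted P = 4.58e-05), *Tbx21* at 4.91 (adjusted P = 0.000153) and *Rora* at 1.3 (adjusted P = 0.0311). *Rora* was lost without TB IL-2nil replicate 2 (adjusted P = 0.0599) or TB+ IL-2nil replicate 1 (adjusted P = 0.0601), and *Maf* passed without TB+ IL-2nil replicate 3 (-1.25, adjusted P = 0.0160).

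Among stimulated cells, *Gata3* was lower with IL-2 than without it, the 1 of 7 members that passed, against 8.40% of all genes lower and 12.9% higher. It was at 231 to 323 TPM in TB+ IL-2 and 473 to 594 TPM in TB+ IL-2nil, without overlap, and differed by -0.94 ± 0.17 (adjusted P = 0.00353). No member exceeded 3-fold with an adjusted P under 0.05, against 3.62% of all genes. No member was higher, also at an unadjusted P under 0.05 (limma), and 4 of 7 were lower at an unadjusted P under 0.05. The share of all genes at that unadjusted threshold is not given here. The shares above are for adjusted P, so they are no baseline for these 4. The median difference was -1.06 for the members and -0.04 for all genes.

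The other 3 of these 4 were *Tbx21*, *Rora* and *Maf*. *Tbx21* was at 91.4 to 146 TPM with IL-2 and 205 to 326 TPM without it. These ranges did not overlap, and the difference was -1.2 ± 0.45 (adjusted P = 0.0796). *Rora* did not overlap either, at 6.38 to 13.5 TPM and 15.4 to 24.2 TPM, with a difference of -1.06 ± 0.37 (adjusted P = 0.0628). *Maf* overlapped in 1 library, with a difference of -1.27 ± 0.44 (adjusted P = 0.0639). With the replicate number as a block *Rora* (adjusted P = 0.00448) and *Maf* (adjusted P = 0.00636) passed and *Tbx21* did not (adjusted P = 0.0681). *Tbx21* passed without TB IL-2nil replicate 1, its lowest library (adjusted P = 0.0168). *Bcl6* differed by -1.24 ± 0.65 (adjusted P = 0.196), and without TB+ IL-2nil replicate 2 by -2.09 (adjusted P = 0.0131). *Prdm1* and *Eomes* had intervals from -1.02 to 0.33 and from -0.34 to 1.07.

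Placed by label no member passed (*Gata3*, adjusted P = 0.148), and with both libraries left out *Gata3* did (-0.80, adjusted P = 0.0272).

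**Figure D2:**
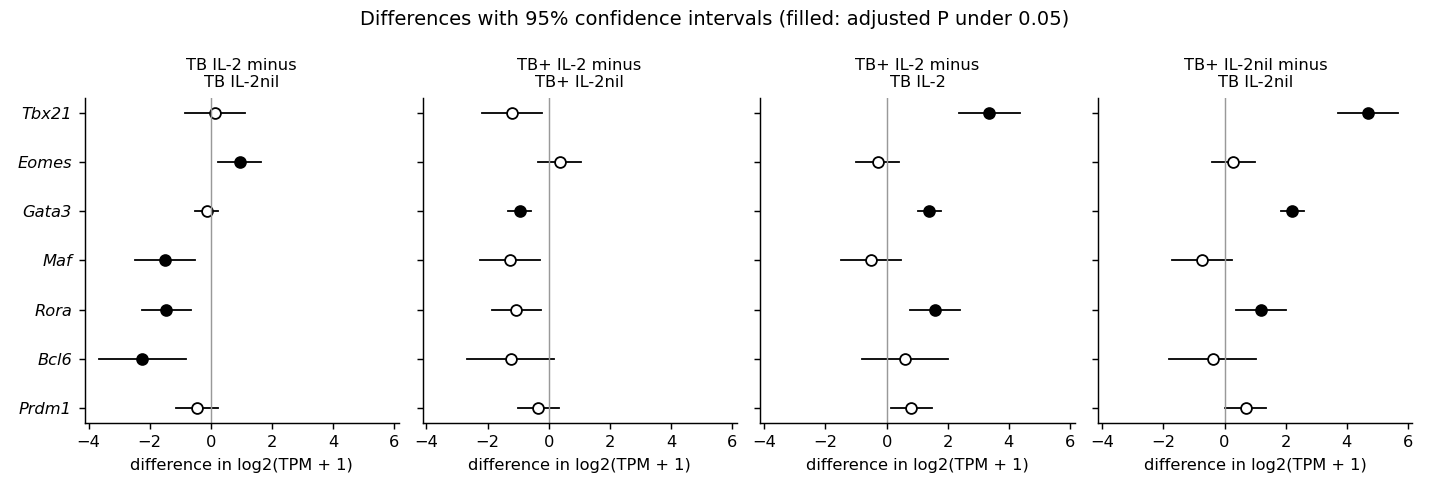
Differences of the 7 members in log2(TPM + 1) with 95% confidence intervals in the 4 comparisons, with filled points at an adjusted P under 0.05. *Bcl6* at -2.24 and *Tbx21* at 4.70 are the ends of the scale, and the intervals of *Bcl6* are the widest of the 7 members.

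Whether PMA/I acted differently with and without IL-2 was tested by the interaction term, the IL-2 difference in stimulated cells minus that in unstimulated cells. None of the 7 members passed (limma), against 4.23% of all genes. At an unadjusted P under 0.05, for which no share of all genes is given here, stood 1 member, *Gata3*. Its interaction was -0.82 ± 0.24 (adjusted P = 0.0808), that is, a smaller rise with IL-2 than without, and passed with the replicate number as a block (adjusted P = 0.0314) but not with both libraries left out (-0.70, adjusted P = 0.204). *Tbx21* had an interaction of -1.34 ± 0.63, with an interval from -2.73 to 0.06 (adjusted P = 0.235). The intervals of *Maf* (-1.16 to 1.60), *Rora* (-0.76 to 1.53), *Prdm1* (-0.84 to 1.07), *Eomes* (-1.58 to 0.42) and *Bcl6* (-1.01 to 3.0) all spanned 0. Thus the lower *Bcl6* and *Maf* with IL-2 in unstimulated cells were not shown to differ from those in stimulated cells.

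**Figure D3:**
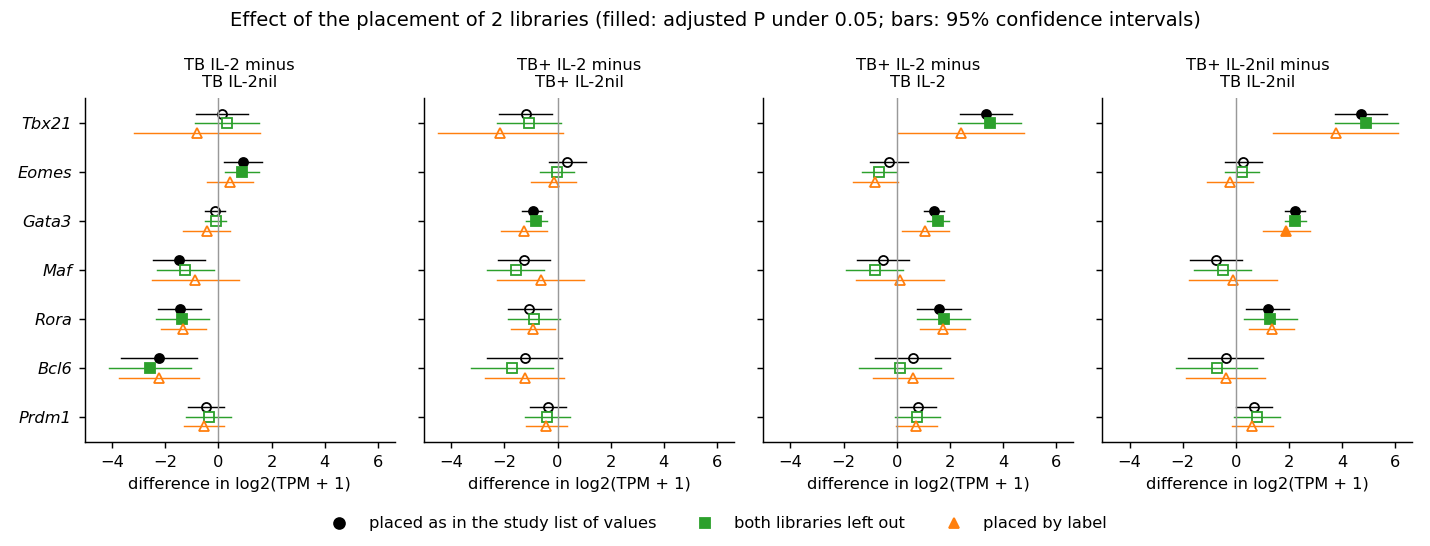
The same differences with the 2 exchanged libraries as placed here (circles), left out (squares) and placed by label (triangles), with 95% confidence intervals and filled points at an adjusted P under 0.05. By label, *Gata3* in TB+ IL-2nil minus TB IL-2nil (1.90) is the single filled triangle.

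Ratios within a library do not depend on the scaling between libraries. *Tbx21* over *Gata3*, the Th1 factor over the Th2 factor, was 0.0546, 0.136 and 0.101 in TB IL-2 and 0.0288, 0.137 and 0.101 in TB IL-2nil. After PMA/I it was 0.482, 0.301 and 0.395 with IL-2 and 0.570, 0.406 and 0.432 without it. As placed here, all 6 stimulated libraries were above all 6 unstimulated ones, and in none did *Tbx21* reach *Gata3*. *Tbx21* over *Eomes*, the ratio of the T-box pair, was 1.62 to 10.5 in unstimulated and 15.5 to 205 in stimulated libraries. *Bcl6* over *Prdm1*, the ratio of the opposing pair, was 0.289, 0.176 and 0.103 in TB IL-2 and 2.29, 0.994 and 0.542 in TB IL-2nil. The 3 libraries without IL-2 were all above the 3 with it. After PMA/I the ratio was 0.137, 0.0912 and 0.446 with IL-2 and 0.996, 0.0910 and 0.775 without it, where replicate 2 without IL-2 was as low as the libraries with IL-2. By label, this ratio in replicate 3 becomes 0.446 in TB IL-2nil and 0.542 in TB+ IL-2. *Tbx21* over *Gata3* becomes 0.395 and 0.101 there, and *Tbx21* over *Eomes* 15.5 and 8.6. Stimulated and unstimulated libraries then overlap in both of these *Tbx21* ratios. With both libraries left out they do not.

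**Figure D4:**
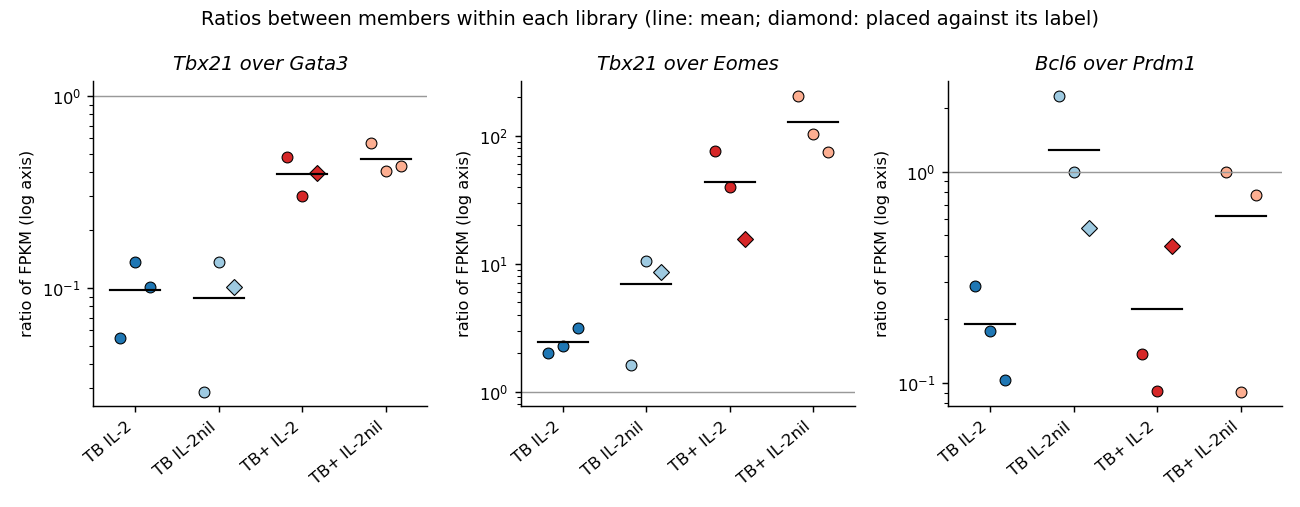
Ratios of FPKM between members in each library on log axes, by group, with the mean as a line and diamonds for the 2 libraries placed against their label. As placed here, *Tbx21* over *Gata3* lies between 0.0288 and 0.137 without PMA/I and between 0.301 and 0.570 with it. *Bcl6* over *Prdm1* is 0.542 or above in 5 libraries, all without IL-2 as placed here.

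The genes that the members are known to direct were counted in 6 lists. PMA/I moved the cytokines of several lineages at once. In TB+ IL-2 against TB IL-2, 5 of 13 Th1 genes were higher and 5 lower (median -0.11), 3 of 12 Th2 genes higher and 2 lower (median 0.43), 7 of 10 Th17 genes higher (median 1.64) and 6 of 10 Tfh genes higher (median 2.13), against 11.8% higher and 23.3% lower of all genes. Neither of the last 2 lists had a gene that was lower, also at an unadjusted P under 0.05 (limma). *Ifng*, the Th1 cytokine and a target of T-BET, was at 1.46, 3.86 and 4.14 TPM in TB IL-2 and at 1252, 3803 and 1230 TPM in TB+ IL-2, a difference of 8.84 (adjusted P = 3.33e-07). The Th2 cytokines *Il4* and *Il13* differed by 7.23 and 8.34, and *Il4* was already at 9.35 to 19.6 TPM in TB IL-2. With the replicate number as a block 5 of 12 Th2 genes were higher, as were 1867 of all 12442 genes, against 1471 without the block. Of the Th17 list, *Il17f* differed by 5.08, *Irf4*, a factor shared by several helper lineages, by 4.92 and *Il22* by 2.55, but *Il17a* reached 4.23 TPM at most in TB+ IL-2. Of the Tfh list, the cytokine gene *Il21* differed by 7.01 and the inhibitory receptor *Pdcd1* by 5.21, while *Cxcr5*, the receptor that brings Tfh cells into follicles, was at 3.0 TPM or below in all libraries. *Runx3*, a partner of T-BET (-1.96), and *Il4ra*, the IL-4 receptor (-2.03), were lower.

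Without IL-2, against 20.1% higher and 41.1% lower of all genes, PMA/I left 4 of 13 Th1 genes higher and 6 lower, 6 of 12 Th2 genes higher and 2 lower, 5 of 10 Th17 genes higher, and 6 of 10 Tfh genes higher and 1 lower, the adaptor gene *Sh2d1a* (-1.70). *Ifng* differed by 8.68, *Il13* by 8.87, *Il4* by 7.68 and *Il21* by 6.82. *Gfi1*, a repressor used in Th2 cells, rose from 9.68 to 24.2 TPM up to 263 to 474 TPM, a difference of 4.27 (adjusted P = 6.67e-06). The medians were -0.55, 0.65, 1.05 and 1.94 in that order. Of 10 genes linked to cytotoxicity, *Prdm1* or *Eomes*, 3 were higher after PMA/I with IL-2 (median 0.24), and 5 were higher and 1 lower without it (median 0.70), or 5 and 2 with the block. In that last fit 2838 of all 12442 genes were higher and 5762 lower. *Il10*, a target of BLIMP1 and c-MAF, differed by 5.45 with IL-2 and 6.62 without it.

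For IL-2 in unstimulated cells, where 17.3% of all genes were higher and 22.3% lower, few genes of the effector lists were called. With IL-2, 1 of 13 Th1 genes was higher and 2 were lower (median -0.18), 2 of 12 Th2 genes lower (median 0.60), 1 of 10 Th17 genes lower (median -0.12) and 3 of 10 Tfh genes lower (median -0.69). With the replicate number as a block they were 1 higher and 6 lower for Th1, 3 and 3 for Th2, 1 and 2 for Th17 and 0 and 3 for Tfh genes, while 2656 of all 12442 genes were higher and 3666 lower. Of the Th1 list, *Il12rb1*, the shared chain of the IL-12 and IL-23 receptors, was higher with IL-2 (1.28) and *Stat4* (-1.60) and *Ccl5* (-1.07) lower. The call of *Ccl5* was lost in 8 of the 12 fits that left out 1 library (adjusted P up to 0.162). The 3 Tfh genes were *Slamf6* (-2.28), *Sh2d1a* (-1.89) and *Il6st* (-1.65), which encodes the shared chain of the IL-6 receptor. The Th17 gene was *Il6ra*, the other chain (-2.43, adjusted P = 0.0392), whose groups overlapped and whose call was lost in 6 of these 12 fits (adjusted P up to 0.140). Of 10 cytotoxic and *Prdm1* or *Eomes* associated genes 2 were higher and 1 lower (median 0.13), or 2 and 2 with the block. *Gzmb*, encoding granzyme B, was at 389, 581 and 594 TPM with IL-2 and at 19.0, 1.95 and 12 TPM without it, a difference of 5.81 (adjusted P = 7.59e-05). In stimulated cells, where 12.9% of all genes were higher with IL-2 and 8.40% lower, 1 of 13 Th1 genes was higher, 3 of 12 Th2 genes were lower, with *Gfi1* at -1.78, 1 of 10 Th17 genes was higher and 2 lower, and 3 of 10 Tfh genes were lower, with *Slamf6* at -1.47. The medians were 0.07, -0.31, -0.42 and -0.86 in that order, against -0.04 for all genes. With the block 2 Th1 genes were higher, 1 Th2 gene was higher and 3 lower, 1 Th17 gene was higher and 3 lower, and 4 Tfh genes were lower. Of all 12442 genes, 2245 were then higher and 1941 lower, against 1599 and 1045 without the block.

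Of 16 regulators that act with or on the members 11 were lower with IL-2 than without it in unstimulated cells, against 22.3% of all genes, and none was higher, also at an unadjusted P under 0.05 (limma). The median was -0.94 against -0.13 for all genes. Cell type markers moved the same way in this comparison, with 5 of 5 B cell and plasma cell markers lower (mean sum 22.0 TPM against 90.9 TPM) and 6 of 8 T cell markers lower, and their part in the regulators' differences was not tested. *Tcf7*, encoding TCF1, a factor of resting and Tfh cells that acts on *Bcl6*, was at 155, 81.0 and 158 TPM in TB IL-2 and at 599, 761 and 804 TPM in TB IL-2nil (-2.50, adjusted P = 0.00292). *Ikzf3*, encoding AIOLOS, differed by -2.49 and *Bach2*, a repressor of effector genes including *Prdm1*, by -1.75. In stimulated cells 6 of 16 were lower with IL-2, against 8.40% of all genes, with *Ikzf3* at -1.44, *Zeb2* at -1.31 and *Foxo1* at -1.13. The calls of *Zeb2* and *Foxo1* were each lost in 3 of the 12 fits that left out 1 library (adjusted P up to 0.0907 and 0.0842). After PMA/I 4 of 16 were lower with IL-2, against 23.3% of all genes, and 7 of 16 without it, against 41.1%, shares close to those of all genes. Among them *Klf2*, a factor of resting T cells, differed by -2.02 with IL-2 and -3.48 without it and *Id3* by -2.99 and -3.02. The 2 that were higher in each were *Zeb2* (1.81 and 3.0) and *Stat5a* (1.63 and 2.05). Placed by label, 3 of the 96 list gene differences called and named by the rule kept their call, and with both libraries left out 81 did. Each of the 4 groups enters 2 of these comparisons, so the counts are not independent of each other.

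**Figure D5:**
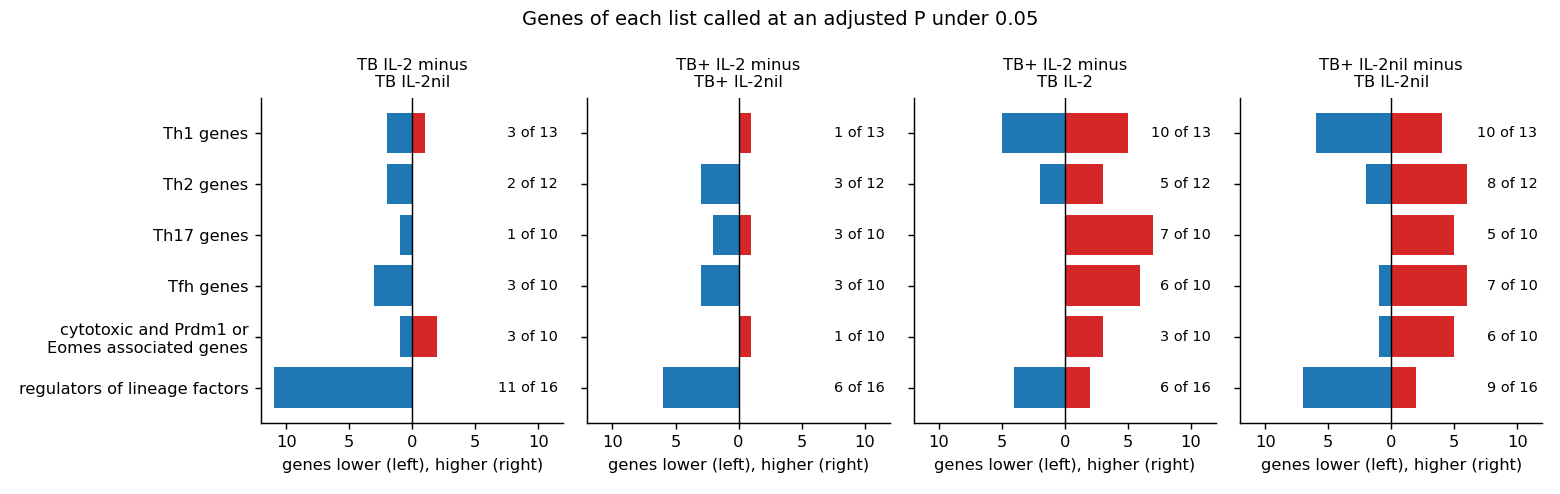
Number of genes in 6 lists called lower (left, blue) and higher (right, red) at an adjusted P under 0.05 in the 4 comparisons, with the number called of those tested. Regulators of lineage factors fill the left side for IL-2 in unstimulated cells (11 of 16), and Th17 (7 of 10) and Tfh genes (6 of 10) the right side for PMA/I with IL-2.

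The genes whose log2 levels over the 12 libraries were most like those of each member were found among 9497 other genes over 5 TPM in at least 3 libraries. The libraries share their groups, so a high correlation can reflect the groups alone. For *Tbx21* these were *Irf4* (Pearson r = 0.984), *Nfkbib* (0.984) and *Btg3* (0.981), and for *Gata3* *Rapgef1* (0.992), *Plagl2* (0.991) and *Ppip5k2* (0.985). For *Rora* they were *Traf1* (0.975), *Peak1* (0.973) and 4932438A13Rik (0.971), and for *Maf* *Kxd1* (0.960), *Atp6v0d1* (0.959) and *Ppt2* (0.951). *Bcl6* was nearest to *Slc26a11* (0.930), *Ppp6r3* (0.924) and *Dapp1* (0.904), and *Prdm1* to *Ubald2* (0.895), *Rnpc3* (0.895) and *Lin7c* (0.894). *Eomes* was over 5 TPM in 2 libraries and was not compared. Among the members themselves, *Tbx21* and *Gata3* were the most alike pair (r = 0.950), then *Gata3* and *Rora* (0.801), and *Bcl6* was nearest to *Maf* (0.653).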

How the data were processed

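RNA was sequenced from 12 libraries in 4 groups of 3. Per the submitters' processing notes, the authors used Trimmomatic 0.32 for trimming, HISAT2 2.1.0 for alignment (mm9) and StringTie 1.3.3 for quantification of RefSeq gene models, and the deposited values are FPKM per gene. The methods name TPM, as the plan of tests assumed, but the columns held FPKM. FPKM was therefore rescaled to 1000000 per library, genes that no library held above 1 TPM were dropped, and libraries were scaled to a common 75th percentile. Tests were on log2(TPM + 1) in limma 3.58.1 (R 4.3.3), in 1 fit over the 4 groups with 8 residual degrees of freedom, with two-sided P-values adjusted by Benjamini-Hochberg over all 12442 genes. Calls needed an adjusted P under 0.05. The code was tested on simulated data. Read counts were not used, so no counting interval is given, and depth is relative.

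The libraries labelled TB IL-2nil replicate 3 and TB+ IL-2 replicate 3 were exchanged on the basis of the study's own list of values. The match used TPM after quantile normalization, which is an alternative here and not the main scaling. In each of the 12 columns of that list 100% of 1381 genes met 1 library within 0.1%, and the next best met at most 1.59%. As placed, libraries with the same replicate number deviated together from their group means (18 pairs, r from 0.101 to 0.531), so the number was also used as a block. The labels do not say what the number marks.

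The members and gene lists were chosen with earlier results of these data known. Within each list the genes named were up to 3 called genes per direction with the largest difference, plus genes needed as background. Up to 3 genes most like each member were named by Pearson's r. Lists were Th1, Th2, Th17, Tfh, cytotoxic and regulator genes, and markers of T, CD8 T, B and plasma, NK, myeloid and regulatory T cells. Alternatives were the labels as given, both exchanged libraries left out, the block, another pseudocount (0.1), no filter or one of over 5 TPM in 3 libraries, 3 other scalings, limma with trend and robust settings, and each library left out. Promoter sequences are those of RefSeq, placed in mm9 by exact match. Some genes are not reported here.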

Additional observations from a re-analysis of the deposited data

Results flagged for a closer look

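*Ets1*, a transcription factor listed among the regulators of the members, was singled out because the effect of IL-2 on it differed between unstimulated and stimulated cells by the interaction term (1.19 in log2(TPM + 1), adjusted P = 0.0145, limma). It was at 321, 275 and 292 TPM in TB IL-2 and at 709, 734 and 690 TPM in TB IL-2nil, whereas it was at 207, 200 and 192 TPM in TB+ IL-2 and at 212, 186 and 236 TPM in TB+ IL-2nil. IL-2 thus went with a lower level in all 3 unstimulated libraries, and the stimulated groups overlapped. The interaction was not called by label (1.19, adjusted P = 0.914) or with both exchanged libraries left out (1.24, adjusted P = 0.0772). No group of 3 libraries was tested for outlying libraries.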

How the results depend on the processing

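Of 800 differences of the members over all alternatives 716 kept their direction and their side of the threshold. Placing the 2 libraries by label changed most. The number of members called went from 4 to 0 for IL-2 in unstimulated cells, from 3 to 0 for PMA/I with IL-2, from 3 to 1 for PMA/I without it and from 1 to 0 for IL-2 in stimulated cells. Calls among all 12442 genes fell too, for IL-2 in unstimulated cells from 2156 higher and 2773 lower to 9 and 6. By label they were 30 and 32 for PMA/I with IL-2 and 239 and 430 without it. For IL-2 in stimulated cells they were 23 and 4. With the replicate block the numbers were 4, 4, 5 and 3, and 1 for the interaction, and with the replicate block on the labels as given 1, 1, 1, 0 and 0. The block as placed called 2656 of all 12442 genes higher and 3666 lower for IL-2 in unstimulated cells. For PMA/I it called 1867 and 3889 with IL-2 and 2838 and 5762 without it. For IL-2 in stimulated cells it called 2245 and 1941, and for the interaction 760 and 718. A limit of 3-fold left 1 and 0 members for IL-2 in unstimulated and stimulated cells. Quantile normalization gave 5 for PMA/I without IL-2, where 2910 of all 12442 genes were higher and 3787 lower. Median ratio scaling gave 3 for IL-2 in stimulated cells, where 1482 of all genes were higher and 1364 lower. It gave 1 for the interaction, where 126 of all genes were higher and 427 lower. Removing short RNAs with no scaling lost *Eomes* for IL-2 in unstimulated cells (0.92, adjusted P = 0.0511, limma). It also lost *Rora* for PMA/I without IL-2 (0.95, adjusted P = 0.0552, limma). No filter lost the same *Eomes* call (0.96, adjusted P = 0.0611, limma) and added *Prdm1* for PMA/I without IL-2 (0.87, adjusted P = 0.0483, limma). With 1 library left out at a time the numbers ranged from 2 to 4, 3 to 4, 2 to 4, 1 to 2 and 0 to 1 in the order of the comparisons. All 25 reversals were of differences that had not passed the test. By label, *Tbx21* for IL-2 in unstimulated cells became -0.81, *Maf* for PMA/I with IL-2 0.11, *Eomes* for PMA/I without IL-2 -0.22 and *Eomes* for IL-2 in stimulated cells -0.14, each with the block too. With both libraries left out *Eomes* for IL-2 in stimulated cells was -0.01 and the interactions of *Maf* and *Prdm1* were -0.33 and -0.01. With quantile normalization *Eomes* for PMA/I with IL-2 was 0.07, *Bcl6* for PMA/I without it 0.10 and the interaction of *Prdm1* -0.03, as with median ratio scaling. With 1 library left out, *Tbx21* for IL-2 in unstimulated cells ranged from -0.46 to 0.52 and was -0.12 without TB IL-2 replicate 2, *Bcl6* for PMA/I without IL-2 ranged from -0.91 to 0.45, *Eomes* for IL-2 in stimulated cells from -0.01 to 0.61 and the interaction of *Maf* from -0.12 to 0.73, with the reversals at -0.12, -0.08 and -0.03, and that of *Prdm1* -0.16, -0.05 and -0.04. Pseudocount and trend settings moved no call. The differences of list genes, recomputed under alternatives chosen after seeing the data, kept 96 of 96 calls with the block, 81 with both libraries left out and 3 by label, with none reversed. The block added calls, as for Th1 genes lower with IL-2 in unstimulated cells (2 to 6) and Th2 genes higher (0 to 3). It added calls among all genes too, from 2773 to 3666 lower and from 2156 to 2656 higher in this comparison. The causes were not tested. With 3 libraries a group, wide intervals, as for *Bcl6*, leave sizeable differences undetectable.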
